A study of Homo sapiens with 12 samples.

Results

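The guanylate-binding proteins are the 7 genes GBP1 to GBP7, taken as the rows of the count table that carry these symbols, out of 60666 genes in all. They encode large GTPases that interferon γ (IFNγ) switches on strongly in epithelial cells and macrophages. The proteins assemble on the surface of bacteria and on parasite vacuoles, where they expose lipopolysaccharide to the inflammatory caspases. GBP1, GBP2 and GBP5 end in a prenylation signal that anchors them to membranes, and GBP3 and GBP4 join the coat that GBP1 starts on bacteria.

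RNA was sequenced from HT1376, an established human bladder carcinoma line. HT1376 CT, a CRISPR control that received a guide against luciferase and that the sample labels call wild type, was compared with HT1376 FOXP3 KO, in which exon 2 of FOXP3 was targeted. Each line was left untreated (CT and KO) or was given 100 ng/mL IFNγ for 48 hours (CT + IFNγ and KO + IFNγ), with 3 libraries per group numbered 11, 12 and 13. The comparisons ask how far IFNγ raises each GBP gene in each line, and whether the lines differ without IFNγ, with it, or in the response itself.

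The paper calls the sequenced lines clonal and does not say that more than 1 clone per line was used. The loss of FOXP3 therefore cannot be told apart from any other difference between the clones. In a bulk sample, fewer cells with a transcript and less transcript per cell cannot be told apart either. Nothing in the sources says that libraries of a group came from separate cultures, so the p-values measure the spread between libraries, which may be technical. The libraries held 4490684 to 39270042 counts, and no library was a copy of another. FOXP3 had at most 3 counts in any library, with a total of 2 counts in the CT line and 6 in the KO line, which is too few to check the labels. Summed epithelial markers (EPCAM, CDH1 and 5 keratins) lay between 3821 and 4939 normalized CPM (counts relative to the scaled library total) in every library. Single markers differed between the lines. EPCAM was at 37.93 to 97.35 CPM in the CT line and 14.76 to 23.19 CPM in the KO line. CDH1 was at 354.1 to 396.9 and 209.2 to 284.4 CPM. KRT7 was higher in the KO line (820 to 1487 against 371.6 to 778.1 CPM), and the other keratins overlapped. The urothelial marker UPK3A was at or below 3 counts everywhere, UPK1A was at most 0.2335 CPM and UPK2 at most 0.9796 CPM, while UPK1B was at 368.5 to 563 CPM. The other urothelial markers separated the lines in opposite directions. GATA3 was at 108.5 to 175.8 CPM in the CT line and 89.35 to 105.5 CPM in the KO line. PPARG was at 7.385 to 23.12 CPM in the CT line and 41.8 to 60 CPM in the KO line.

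The 7 genes lie side by side on chromosome 1, over 381 kb of GRCh38 from 89006679 to 89388160. In the direction of the coordinates the order is GBP3, GBP1, GBP2, GBP7, GBP4, GBP5 and GBP6. The first 6 of these are on the minus strand and GBP6 is on the plus strand. The main transcript has 11 exons in each gene other than GBP5, which has 12. The coding sequences are 65.4% (GBP5 and GBP6) to 91.7% (GBP1 and GBP3) identical between members. Despite this likeness, no stretch of 150 bases, the length of one read, of the main transcripts of GBP1 to GBP6 occurs in a transcript of another gene. GBP7 is the exception. It overlaps GBP2 on the same strand over 621 exon bases, and 20.8% of its 150-base stretches are also GBP2 sequence, so reads there cannot be assigned to one of the pair.

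The start regions of GBP1, GBP3 and GBP4 hold the core of an interferon-stimulated response element (ISRE), the DNA element bound by interferon regulatory factors. They are shown for this core. RefSeq promoters (GRCh38.p14, 250 bases before to 50 after the start) were at hand for 5 members, namely GBP1, GBP3, GBP4, GBP6 and GBP7. The letters searched were GAAANNGAAA on both strands, and the match is in capitals in these stretches of 30 bases, written 5′ to 3′ along each gene.
GBP1: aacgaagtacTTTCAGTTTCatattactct
GBP3: aaagaagtacTTTCAGTTTCattaggctct
GBP4: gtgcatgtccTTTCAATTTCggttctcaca
The GBP1 stretch is chr1:89065316-89065345 on the minus strand, with the match from base -127 to -118 before the RefSeq start and inside the longer gene model of GENCODE 44. The GBP3 stretch is chr1:89022845-89022874 on the minus strand, with the match from base 3 to 12 after the start. The GBP4 stretch is chr1:89198927-89198956 on the minus strand, with the match from base -4 to 6 across the start. The GBP6 and GBP7 promoters held no such core within this window. GBP6 counts rose with IFNγ in both lines, as GBP1, GBP3 and GBP4 did, and the part of the core in this was not tested. Of all 35116 promoters in the table, 3.57% held such a core. A gamma-activated site (GAS), the letters TTCNNNGAA, was found in the GBP3 promoter alone among the 5, from base -15 to -7, and in 7.66% of all promoters. Forkhead letters, searched as ATAAACA, as ACAAACA, as GTAAACA and as GCAAACA on both strands, occurred in the GBP4 promoter, from -126 to -120 and from -52 to -46, and in 15.1% of all promoters. TGTTTAC, which is GTAAACA on the other strand, occurred in 0 of the 5 and in 3.42% of all. Each match is a description of letters and not a bound site.

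IFNγ raised GBP1 to GBP5 in the CT line, by between 6.25-fold for GBP3 and 2170-fold for GBP5. GBP6 and GBP7 had 4 and 0 counts over the untreated CT libraries and 472 and 86 under IFNγ. Levels are given as normalized CPM, in which each library total is scaled by its TMM factor over the 12 libraries. Fold changes come from the quasi-likelihood test of edgeR, with Benjamini-Hochberg adjusted p-values over all genes tested and with the standard error (SE) on the log2 scale.

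GBP1, which binds lipopolysaccharide and starts the coat on bacteria, was at 4.50, 5.80 and 7.31 CPM in the CT libraries. Under IFNγ it was at 877.5, 746.6 and 843.8 CPM, far above the untreated libraries and without overlap. The log2 fold change was 7.12 (SE 0.185, edgeR adjusted p = 1.2e-09). GBP2, which joins GBP1 on membranes, was nearly silent in CT at 0.759, 1.19 and 1.10 CPM. It reached 168.6, 202.6 and 149.1 CPM under IFNγ, again without overlap. Its log2 fold change was 7.41 (SE 0.206, edgeR adjusted p = 1.7e-09). GBP5, which with GBP2 restrains the protease furin, had 0, 5 and 20 counts in CT, or 0, 0.397 and 0.526 CPM. With IFNγ it rose to 678.1, 833.6 and 831.6 CPM, without overlap. The log2 fold change of 11.08 (SE 0.367, edgeR adjusted p = 7.0e-09) was the largest of GBP1 to GBP5, and without CT library 13 it was 12.11.

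GBP3 was present before treatment, at 9.28, 11.3 and 11.2 CPM in CT. It was at 58.4, 72.9 and 65.6 CPM under IFNγ, a log2 fold change of 2.65 (SE 0.150, edgeR adjusted p = 5.8e-07), the smallest of the family. GBP4 varied widely between untreated CT libraries, at 0.233, 5.09 and 1.89 CPM. Under IFNγ it lay at 591.0, 727.9 and 590.5 CPM, and the log2 fold change was 8.20 (SE 0.559, edgeR adjusted p = 2.8e-06), or 8.99 without CT library 12.

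GBP6 and GBP7 are the weakly expressed members, and both reached the 10 counts needed for the test only through the treated libraries, so that they had to be higher there to be tested, and no p is given. GBP6 had 0, 0 and 4 counts in CT and 169, 49 and 254 counts (16.4, 11.3 and 14.2 CPM) with IFNγ. Its fitted log2 fold change was 7.79 with the untreated counts of CT library 13 and 10.47 without them, when both remaining untreated libraries were at 0, and neither is a bound. The ratio of pooled CPM was 246, with an exact 95% interval of 95.3 to 906 that covers counting error only. GBP7 had no count in any untreated CT library and 13, 23 and 50 counts (1.26, 5.31 and 2.79 CPM) under IFNγ. With a floor of 3 counts put in place of the untreated group, the ratio of pooled CPM for GBP7 was 59.7. The exact 95% lower limit for counting error, from the 0 counts seen, was 47.5-fold. Of the 5 members with 10 counts in each group, 5 passed as higher, where 3.53% of all 24416 genes tested did and 3.97% of the 19493 genes with 10 counts in each group. The same 5 did not overlap between groups, where 10.4% of all genes tested lay higher without overlap and 11.6% of those with 10 counts in each group.

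**Figure D1:**
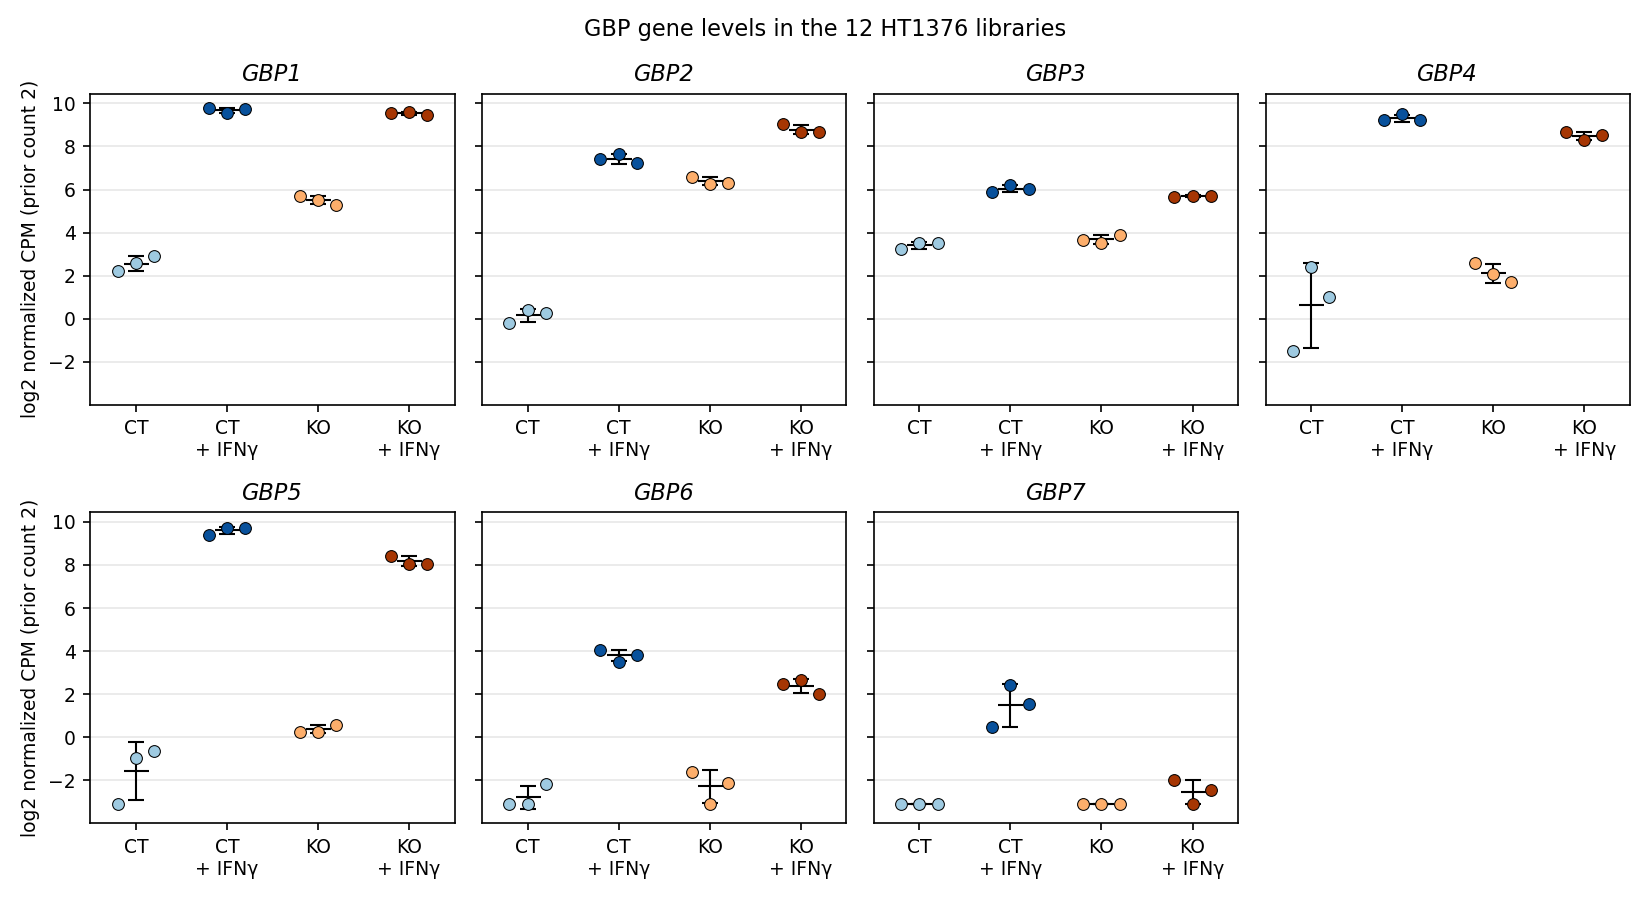
Log2 normalized CPM (prior count 2) of the 7 GBP genes, with 1 point per library, 3 libraries per group, and the mean ± SD of the log2 values as bars. GBP1 and GBP2 start higher in KO than in CT, while GBP4 to GBP7 stay lower in KO + IFNγ than in CT + IFNγ.

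In the KO line IFNγ also raised GBP1 to GBP5, but from another starting point. GBP1 went from 51.7, 45.5 and 39.2 CPM to 744.0, 787.9 and 699.6 CPM, a log2 fold change of 4.05 (SE 0.141, edgeR adjusted p = 6.9e-07). GBP2 went from 96.3, 77.2 and 77.6 CPM to 520.1, 405.7 and 408.1 CPM, a log2 fold change of 2.43 (SE 0.146, edgeR adjusted p = 2.1e-05). GBP5 went from 1.07, 1.07 and 1.38 CPM to 343.7, 263.9 and 268.0 CPM, a log2 fold change of 7.97 (SE 0.193, edgeR adjusted p = 9.4e-08). As in CT, GBP5 showed the largest rise of these 5.

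GBP3 rose from 12.4, 11.2 and 14.7 CPM to 50.8, 52.6 and 52.1 CPM in KO, a log2 fold change of 2.04 (SE 0.131, edgeR adjusted p = 3.3e-05). GBP4 rose from 5.81, 4.03 and 3.11 CPM to 401.8, 314.0 and 374.1 CPM, with a log2 fold change of 6.40 (SE 0.238, edgeR adjusted p = 8.1e-07). Neither gene overlapped between treated and untreated KO libraries. GBP6 had 5, 0 and 2 counts untreated and 82, 58 and 121 counts (5.49, 6.20 and 3.92 CPM) with IFNγ, a fitted log2 fold change of 5.26, or 6.11 without KO library 11. The ratio of pooled CPM for GBP6 was 35.0, with an exact 95% interval of 16.8 to 87.9 for counting error only, and GBP6 again reached 10 counts only through the treated libraries. GBP7 was the exception, with 0 counts in every untreated KO library and only 2, 0 and 2 counts under IFNγ, too few for the test. Of the 5 members with 10 counts in each group, 5 passed as higher against 0.978% of all genes tested and 1.04% of the 20161 genes with 10 counts in each group. The same 5 did not overlap, against 5.99% of all genes tested and 5.42% of those with 10 counts in each group.

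**Figure D2:**
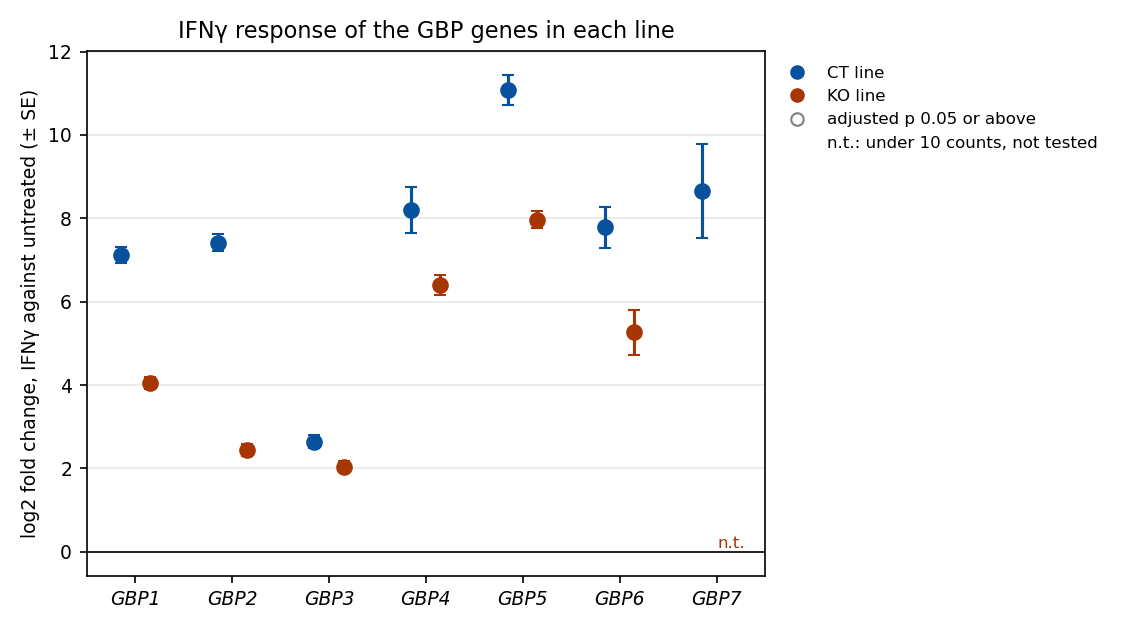
Log2 fold change (± SE) of IFNγ-treated against untreated libraries for each GBP gene, in the CT line (blue) and the KO line (brown), with 3 libraries per group. The response is largest for GBP5 and smallest for GBP3 in CT, and GBP2 has the widest gap between lines (7.41 in CT, 2.43 in KO). The fitted GBP7 value in CT is no estimate of size, since its untreated libraries were at 0.

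Without IFNγ, 2 members were already higher in the KO line, GBP2 by 81.8-fold and GBP1 by 7.69-fold. The untreated KO libraries held GBP2 at 77.2 to 96.3 CPM against 0.759 to 1.19 CPM in untreated CT. The log2 fold change was 6.36 (SE 0.195, edgeR adjusted p = 8.9e-09). The untreated KO level of GBP2 was 48.2% of its mean in IFNγ-treated CT, where untreated CT was at 0.587%. GBP1 was at 39.2 to 51.7 CPM in untreated KO against 4.50 to 7.31 CPM in CT, a log2 fold change of 2.94 (SE 0.197, edgeR adjusted p = 1.3e-06), and reached 5.53% of its level in CT + IFNγ. Between libraries of the same number, the difference was 5.89 to 6.78 for GBP2 and 2.41 to 3.49 for GBP1 on the log2 CPM scale (prior count 2).

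The other members did not pass the main test without IFNγ. GBP5 had 25, 12 and 24 counts in KO, or 1.07 to 1.38 CPM, and 0 to 0.526 CPM in CT, so that the groups did not overlap, with a log2 fold change of 1.83 (SE 0.735, edgeR adjusted p = 0.0811). With the library number as a replicate block, the GBP5 value was 2.11 (edgeR adjusted p = 0.0256). The GBP5 difference also passed with all 12 libraries in 1 fit (1.71, edgeR adjusted p = 0.00664), without the low-count filter (1.81, adjusted p = 0.0212) and with a bias-adjusted deviance (1.70, adjusted p = 0.0450). GBP3 (log2 fold change 0.28, SE 0.180, edgeR adjusted p = 0.271), GBP4 (0.92, SE 0.675, adjusted p = 0.338) and GBP6 (1.23, SE 1.36, adjusted p = 0.538) overlapped between the lines. For GBP4 the CT libraries spanned the KO range, and without CT library 12 the value was 1.94 (edgeR adjusted p = 0.0454). For GBP5 it was 2.71 without CT library 13 (edgeR adjusted p = 0.0757). GBP7 was at 0 in both lines. Of the 5 members with 10 counts in each group, 2 passed as higher against 14.0% of all genes tested, and 3 lay higher without overlap against 21.0%. Among the 19537 genes with 10 counts in each group these shares were 14.9% and 22.3%.

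Under IFNγ the family split. GBP2 was 2.65-fold higher in KO, GBP1 and GBP3 did not pass the test, and GBP4, GBP5 and GBP6 were lower in KO. GBP7 had few counts in KO. GBP2 was at 405.7 to 520.1 CPM in KO + IFNγ and 149.1 to 202.6 CPM in CT + IFNγ, a log2 fold change of 1.41 (SE 0.155, edgeR adjusted p = 5.3e-05). GBP1, at 699.6 to 787.9 CPM in KO and 746.6 to 877.5 CPM in CT, overlapped between lines, with a log2 fold change of -0.10 (SE 0.107, edgeR adjusted p = 0.543). GBP3 gave -0.29 (SE 0.134, edgeR adjusted p = 0.129), although its KO libraries (50.8 to 52.6 CPM) lay below each CT library (58.4 to 72.9 CPM).

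GBP5 was 2.59-fold lower in KO under IFNγ, at 263.9 to 343.7 CPM against 678.1 to 833.6 CPM (log2 fold change -1.38, SE 0.143, edgeR adjusted p = 3.3e-05). GBP6 was 2.65-fold lower, at 3.92 to 6.20 CPM against 11.3 to 16.4 CPM (log2 fold change -1.41, SE 0.255, edgeR adjusted p = 0.00169). GBP4 was 1.70-fold lower, at 314.0 to 401.8 CPM against 590.5 to 727.9 CPM. The log2 fold change of GBP4 was -0.77 (SE 0.135, edgeR adjusted p = 0.00141), and with all 12 libraries in 1 fit it was -0.81 (edgeR adjusted p = 0.134). GBP7 had 4 counts over the 3 KO libraries and 86 over the 3 CT libraries. The ratio of pooled CPM for GBP7 was 36.4 in favour of CT, with an exact 95% interval of 13.7 to 137 for counting error only. GBP7 reached 10 counts only through CT + IFNγ, so its test is not counted. GBP2, with which GBP7 shares exon bases, went the other way in these libraries, and how the authors' counting treated reads in the overlap is not given in the sources used here. Of the 6 members with 10 counts in each group, 1 passed as higher, where 13.2% of all genes tested did, and 3 as lower, where 15.7% did. Among the 18503 genes with 10 counts in each group the shares were 14.0% and 16.5%. Groups did not overlap for GBP2 above CT (20.8% of all genes in that direction) and for 4 of these 6 members below it (22.7%). Among genes with 10 counts in each group these shares were 20.5% and 24.7%.

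**Figure D3:**
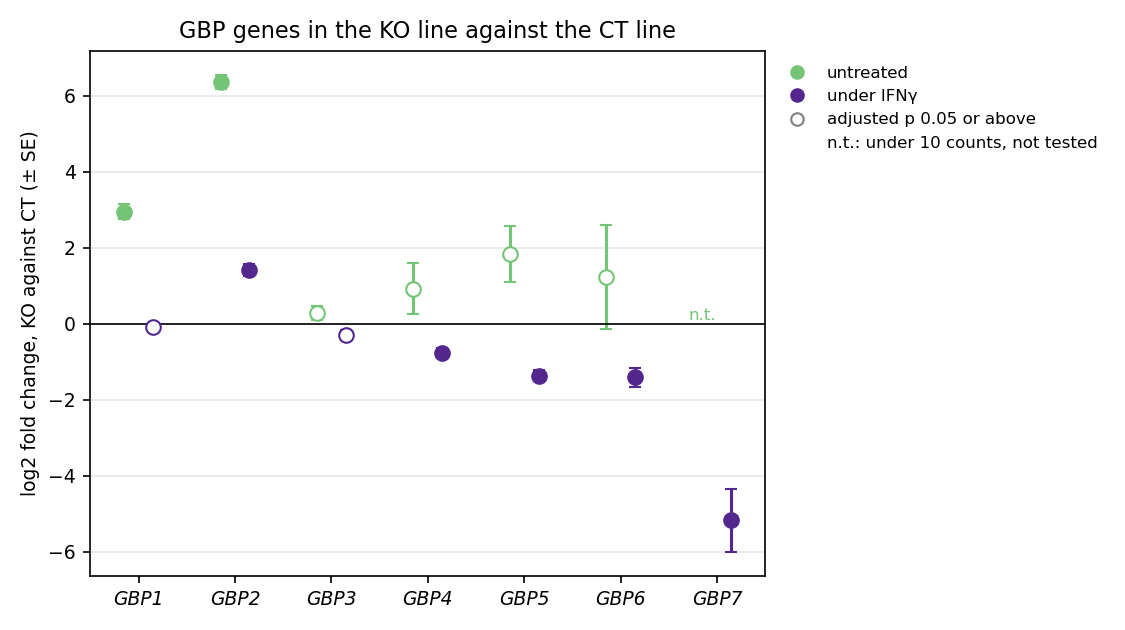
Log2 fold change (± SE) of the KO line against the CT line for each GBP gene, untreated (green) and under IFNγ (purple), with 3 libraries per group and open symbols where the adjusted p was 0.05 or above. GBP2 passes above 0 in both states and GBP1 in the untreated state (2.94), and GBP4, GBP5 and GBP6 pass below 0 under IFNγ. GBP7 also lies below 0 but reached 10 counts only through CT + IFNγ.

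Other genes that separate the clones are shown here because they move with the KO and CT labels. Of 6 fibroblast markers, COL1A2, COL3A1, DCN and LUM were higher in each KO library than in any CT library, and COL1A1 was lower. Summed over the list, these markers were at 24.9 to 65.5 CPM in the CT line and 449.7 to 730.7 CPM in the KO line. PDGFRA stayed at or under 0.342 CPM. The 8 leukocyte markers summed to 3.56 to 5.25 CPM in the CT line and 75.7 to 233.5 CPM in the KO line, of which CSF1R alone made up 74.3 to 232.8 CPM. PTPRC, which marks all leukocytes, was at most 1.46 CPM in the CT line and 0.469 CPM in the KO line, and CD2, MS4A1 and LYZ were at or below 3 counts everywhere. The 5 endothelial markers summed to at most 2.62 CPM. The part of these differences between clones in the GBP levels was not tested.

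GBP1, GBP2 and GBP5 responded to IFNγ to a different extent in the 2 lines, by the interaction of line and treatment fitted over the 12 libraries. GBP2 had the smaller log2 response in KO (interaction -4.98, SE 0.248, edgeR adjusted p = 4.5e-08), with values of -5.16, -4.88 and -4.54 within the numbers 11, 12 and 13. For GBP1 the interaction was -3.08 (SE 0.215, edgeR adjusted p = 2.3e-06), with -3.73, -2.87 and -2.68 within numbers. These responses were smaller on a log scale while the levels reached were 256% of CT + IFNγ for GBP2 and 90.4% for GBP1. In CPM, IFNγ added 172.5 to GBP2 in CT and 360.9 in KO, and added 816.7 to GBP1 in CT and 698.3 in KO. GBP5 gave -3.13 (SE 0.481, edgeR adjusted p = 0.0148), and its level reached 37.4% of CT + IFNγ. With 1 library left out, the GBP5 interaction lay between -4.10 (without CT library 13) and -2.62. The GBP5 call was lost without library 13 of CT + IFNγ (adjusted p = 0.0701), without KO library 11 (0.0760) or without KO library 13 (0.0825).

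The interaction of GBP3 was -0.61 (SE 0.197, edgeR adjusted p = 0.572), that of GBP4 -1.79 (SE 0.626, adjusted p = 0.672) and that of GBP6 -2.57 (SE 0.983, adjusted p = 0.709). None of these passed in the main fit, which held no replicate block. Leaving out 1 library gave -2.55 to -1.22 for GBP4 and -5.49 to -1.65 for GBP6. With the library number as a replicate block, GBP4 passed at -1.83 (edgeR adjusted p = 0.0190), and with a bias-adjusted deviance added to that block it did not (-1.86, edgeR adjusted p = 0.0823). With a replicate block within each line, both GBP3 (-0.61, edgeR adjusted p = 0.00637) and GBP4 (-1.83, edgeR adjusted p = 3.7e-27) passed, which brought the count from 3 to 5. The block within each line with a bias-adjusted deviance gave edgeR adjusted p = 0.0270 for GBP3 and 0.00333 for GBP4. For GBP7 the interaction could not be estimated, since both untreated groups were at 0. In all, 3 of 7 members had a lower response in KO, where 0.108% of all 27806 genes tested did.

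Levels can be compared between genes only per length, here as RPKM, which is normalized CPM per kilobase of exon. Summed over the 7 genes, RPKM was 4.0 ± 0.839 in CT, 353.3 ± 12.1 in CT + IFNγ, 22.9 ± 2.56 in KO and 282.5 ± 18.6 in KO + IFNγ (mean ± SD, n = 3 each). In CT the order was GBP3 (2.47 RPKM), GBP1 (0.961), GBP4 (0.391), GBP2 (0.141), GBP5 (0.0281), GBP6 (0.00748) and GBP7 at 0, and GBP4 overlapped in range with both GBP1 and GBP2, as did GBP5 with GBP6 and GBP6 with GBP7. In CT + IFNγ it was GBP1 (134.8 RPKM), GBP4 (103.6), GBP5 (71.3), GBP2 (24.0), GBP3 (15.3), GBP6 (2.98) and GBP7 (1.28), each separate from the next. GBP4 and GBP5 changed places when the longest transcript was taken as the length.

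In untreated KO the order was GBP2 (11.6 RPKM), GBP1 (7.45), GBP3 (2.98), GBP4 (0.703), GBP5 (0.107), GBP6 (0.0235) and GBP7 at 0, of which the last pair overlapped. In KO + IFNγ it was GBP1 (121.9 RPKM), GBP2 (61.6), GBP4 (59.2), GBP5 (26.6), GBP3 (12.1), GBP6 (1.11) and GBP7 (0.0272), and GBP2 and GBP4 overlapped. GBP3 therefore made up most of the family before treatment in CT (62.8% ± 7.36), while GBP2 made up most in untreated KO (50.6% ± 0.989, or 56.9% by the longest transcript). GBP2 took 3.51% ± 0.0640 in CT, 6.78% ± 0.880 in CT + IFNγ and 21.7% ± 1.73 in KO + IFNγ. GBP5 took 20.2% ± 1.88 in CT + IFNγ and 9.39% ± 0.816 in KO + IFNγ. Shares of GBP2 did not overlap between any of the 4 groups.

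**Figure D4:**
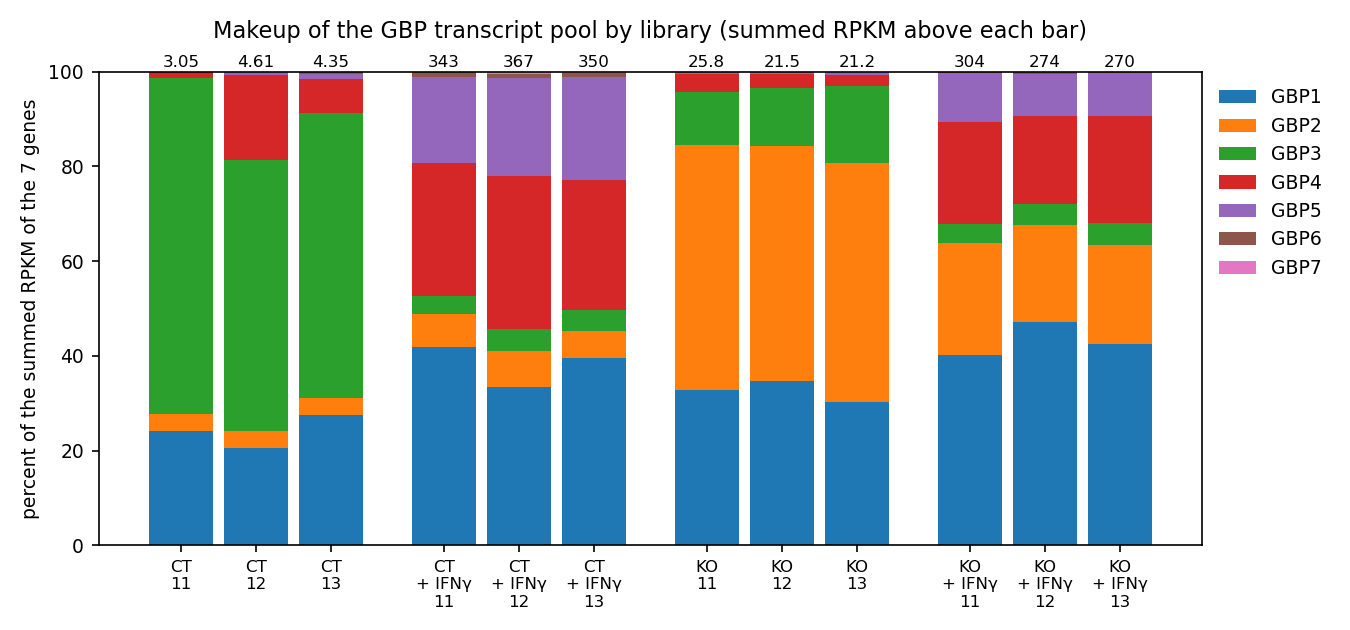
Percent of the summed RPKM that each GBP gene takes in each of the 12 libraries, with the summed RPKM printed above each bar. GBP3 is the largest part in CT, GBP2 in untreated KO (50.6%), and GBP1 in both IFNγ-treated groups.

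The tested neighbours of the cluster gave log2 fold changes between lines that stayed within 1 of 0. Within 500 kb there were 9 other protein-coding genes, of which 7 could be tested. Without IFNγ, KYAT3 (log2 fold change 0.41, edgeR adjusted p = 0.0437) and RBMXL1 (0.50, adjusted p = 0.00900) were higher in KO, where 14.0% of all genes tested were. Under IFNγ, GTF2B (-0.51, edgeR adjusted p = 0.0293) and LRRC8B (-0.71, adjusted p = 0.0354) were lower in KO, where 15.7% of all genes tested were. IFNγ raised RBMXL1 in CT (0.70, edgeR adjusted p = 0.0190), and 0 neighbours passed by edgeR or DESeq2 in KO or for the interaction, where 1 was higher in each at an unadjusted p under 0.05 by edgeR. PKN2, LRRC8C and LRRC8D passed in no comparison, and the models ENSG00000288629 and ENSG00000271949 had no reads counted. The pseudogene GBP1P1, which lies 345 kb from the GBP1 start, had 0 to 3 counts in untreated libraries. Under IFNγ it was at 30.2 to 36.9 CPM in CT and 44.4 to 55.4 CPM in KO, higher in KO by 0.63 on the log2 scale (SE 0.153, edgeR adjusted p = 0.0101). GBP1P1 shares 55 of the 2784 stretches of 100 bases of the main GBP1 transcript, and none of 150 bases.

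**Figure D5:**
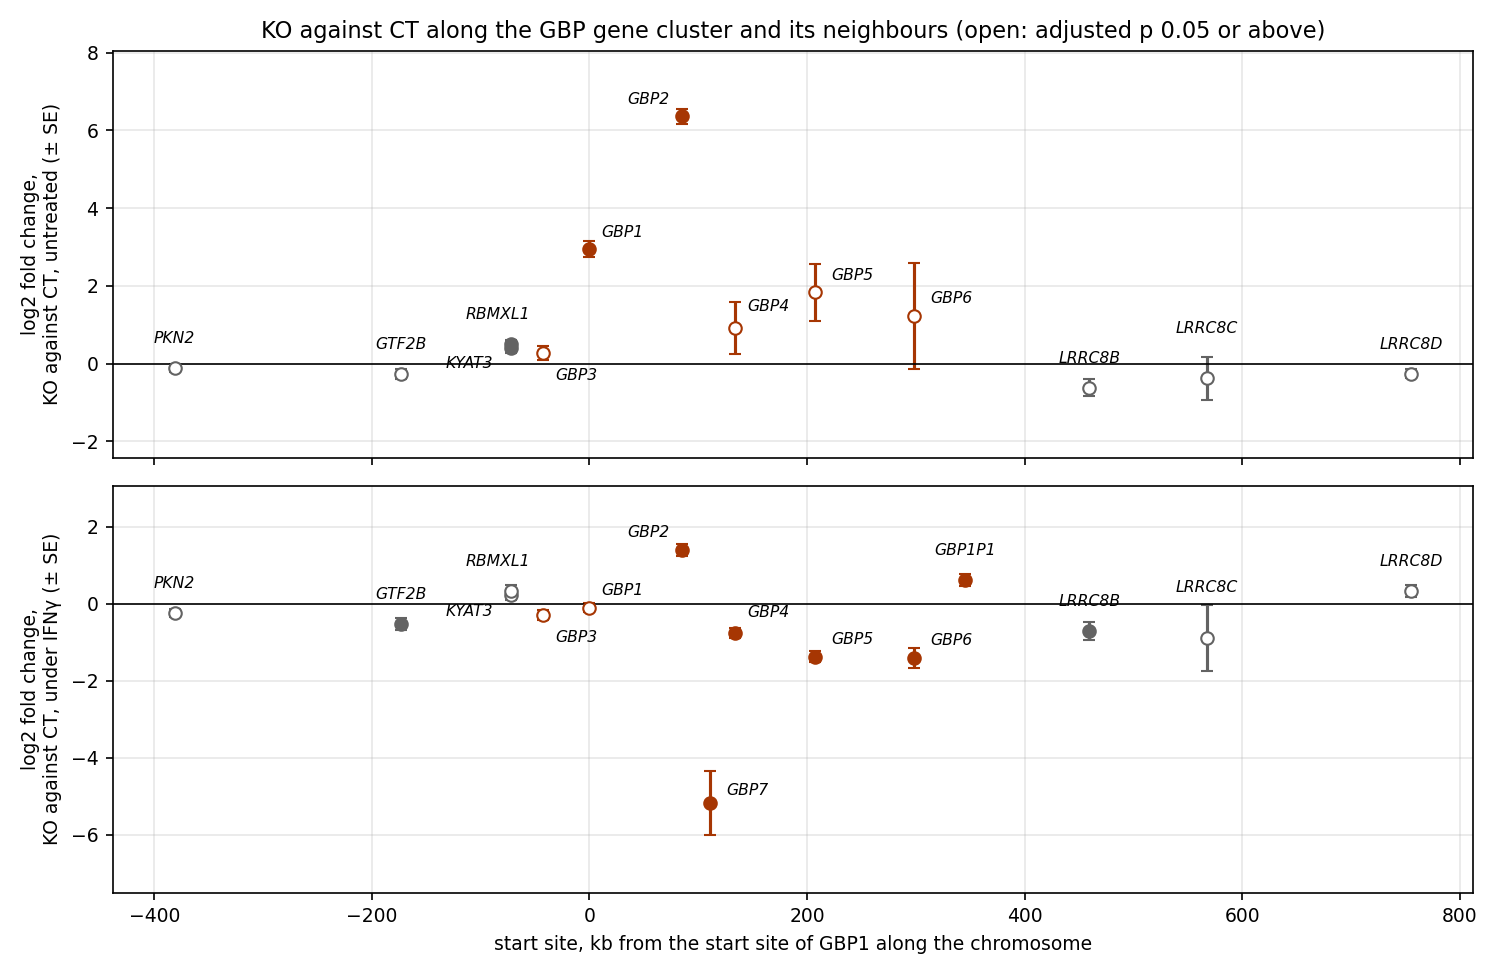
Log2 fold change (± SE) of KO against CT along the chromosome, untreated (top) and under IFNγ (bottom), against the distance of each start site from that of GBP1 in kb. GBP genes are in brown, other protein-coding genes within 500 kb in grey, and open symbols have an adjusted p of 0.05 or above. GBP2 stands highest in both panels, between neighbours that stay within 1 log2 unit of 0.

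The route from the receptor to the GBP genes was also measured, in a list of 17 genes of IFNγ signalling. In CT 11 of 17 rose and 0 fell, with a median log2 fold change of 1.36 against -0.02 over all genes tested, of which 3.53% rose. In KO 6 of 17 rose and 0 fell (median 0.68 against -0.01), where 0.978% of all genes tested rose. IRF1, which binds ISRE elements, rose by 3.83 in CT (SE 0.108, edgeR adjusted p = 1.7e-09) and by 2.91 in KO (SE 0.105, adjusted p = 6.9e-07).

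Between lines, 2 of 16 signalling genes tested were higher and 8 lower in untreated KO. Under IFNγ, 2 of 17 were higher and 8 lower (median -0.74 against 0.02 over all genes). Among all genes with 10 counts in each group, 14.9% were higher and 18.6% lower untreated, and 14.0% and 16.5% under IFNγ. USP18 fell furthest in both states (-2.07 untreated, edgeR adjusted p = 0.000438, and -2.79 under IFNγ, adjusted p = 6.9e-06). SOCS3 came next under IFNγ (-2.34, edgeR adjusted p = 0.00312). IRF1 was lower in KO under IFNγ (-1.17, edgeR adjusted p = 6.3e-06) and had a lower response there (interaction -0.93, adjusted p = 0.0171). IFNGR2, a chain of the IFNγ receptor, was lower in KO untreated (-1.22, edgeR adjusted p = 9.9e-05) and under IFNγ (-1.28, adjusted p = 0.000125). JAK2, a kinase of that receptor, was lower in KO untreated (-1.06, edgeR adjusted p = 0.000261) and under IFNγ (-1.71, adjusted p = 1.0e-05). JAK1, the other kinase of that receptor, was higher in KO untreated (0.54, edgeR adjusted p = 0.00351) and under IFNγ (0.56, adjusted p = 0.00533). The remaining higher genes were STAT2 untreated (0.38, edgeR adjusted p = 0.0235) and PTPN11 under IFNγ (0.37, adjusted p = 0.0268).

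A list of 18 other IFNγ target genes, among them CIITA, IDO1, TAP1 and the immunoproteasome subunits, gives the setting for the GBP genes. It rose in full in both lines, with 18 of 18 genes in CT (median log2 fold change 3.94 against -0.02 over all genes) and 18 of 18 in KO (3.34 against -0.01). With 10 counts in each group, 17 of 17 rose in CT (median 3.59) and 16 of 16 in KO (2.99). In untreated KO 0 of 17 tested were higher and 7 were lower (median -0.52), among them NLRC5 (-2.73, edgeR adjusted p = 0.000283) and B2M (-0.97, adjusted p = 0.000766). Under IFNγ 0 of 18 were higher in KO and 16 were lower (median -1.22 against 0.02), led by ICAM1 (-3.42, edgeR adjusted p = 2.4e-06) and IDO1 (-2.77, adjusted p = 3.0e-06). Over the GBP genes with 10 counts in each group the medians were 7.41 in CT, 4.05 in KO and 1.83 for the lines untreated (GBP1 to GBP5), and -0.53 for the lines under IFNγ (GBP1 to GBP6). In either state 0 genes of this list were higher in KO by edgeR, at an unadjusted p under 0.05 or by DESeq2, whereas GBP2 was higher in both and GBP1 in the untreated state. Whether the GBP genes differ from this list was not tested.

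Transcripts of proteins that act with the GBPs were also measured. Of 15 tested partners and effectors, 10 rose and 1 fell with IFNγ in CT, and 6 rose in KO. Over all genes tested, 3.53% rose in CT and 0.978% in KO. AIM2, a DNA sensor of the inflammasome, rose by 5.94 in CT (SE 0.169, edgeR adjusted p = 1.7e-09) and by 4.51 in KO (SE 0.203, adjusted p = 3.1e-06). APOL3, which permeabilises bacteria that GBPs have coated, rose by 3.30 in CT (edgeR adjusted p = 8.9e-08) and by 2.51 in KO (adjusted p = 9.5e-05). CASP4, the caspase recruited to the GBP coat, rose by 1.54 in CT (edgeR adjusted p = 2.8e-06) and by 1.04 in KO (adjusted p = 0.00203). CASP4 was lower in KO both untreated (-1.61, edgeR adjusted p = 4.7e-06) and under IFNγ (-2.08, adjusted p = 3.5e-07). GSDMD, the pore protein it cleaves, rose by 1.05 in CT (edgeR adjusted p = 0.00109) and by 0.85 in KO (adjusted p = 0.0198), and was lower in KO under IFNγ (-0.48, adjusted p = 0.0233).

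Under IFNγ, 12 of the 15 partners and effectors were lower in KO and 2 were higher (median -1.34 against 0.02 over all genes). Over all genes tested, 15.7% were lower and 13.2% higher. CASP1 was at 163.5 ± 12.9 CPM in CT + IFNγ and 5.50 ± 1.71 CPM in KO + IFNγ (SD, n = 3; log2 fold change -4.81, edgeR adjusted p = 8.7e-08). RNF213, a ubiquitin ligase that coats bacteria, was lower in KO (-2.47, edgeR adjusted p = 1.0e-07) and had a lower response in KO (interaction -2.15, adjusted p = 2.4e-05). FURIN, the protease that GBP2 and GBP5 restrain, was lower in untreated KO (-2.16, edgeR adjusted p = 1.2e-05). In the untreated state 8 of the 15 were lower and 3 higher. Of the 19537 genes with 10 counts in each untreated group, 18.6% were lower and 14.9% higher.

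Of the 6 prenylation enzymes, which attach and process the lipid anchor of GBP1, GBP2 and GBP5, 0 passed for IFNγ in either line by edgeR, at median log2 fold changes of -0.0043 in CT and 0.034 in KO. At an unadjusted p under 0.05 by edgeR, 1 was higher and 1 lower in CT and 0 in KO, and DESeq2 called 1 lower in CT and 0 in KO. FNTA, the shared subunit of the protein prenyltransferases, was lower in KO untreated (-0.49, edgeR adjusted p = 0.00667) and under IFNγ (-0.62, adjusted p = 0.00495). Of 8 related GTPases, 3 rose in CT and 2 in KO, where 3.53% and 0.978% of all genes tested did. Those that rose in both lines were MX1 (log2 fold change 3.11 in CT and 2.71 in KO) and MX2 (4.67 and 1.95), antiviral dynamin-like GTPases, and GVINP1 rose in CT (2.74). MX1 was lower in KO without IFNγ (-2.46, edgeR adjusted p = 0.000848) and with it (-2.82, adjusted p = 0.000108).

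Across the 12 libraries, the members followed each other to different degrees. The points share the 4 groups, so these correlations of log2 CPM describe the groups more than single libraries. Pearson's r was 0.994 for GBP3 and GBP5 and 0.991 for GBP4 and GBP5. GBP2 was the least like the rest among GBP1 to GBP6, with r from 0.731 (GBP6) to 0.915 (GBP1). Over 15671 genes with a mean of at least 1 CPM, the non-member most like GBP1 was APOL4 (r = 0.990), and for GBP2 it was TRAFD1 (r = 0.989), followed by SERPING1 (0.985). STAT2 (r = 0.994) was most like GBP3, MYCBP2 most like GBP4 (0.987) and GBP5 (0.996), and WARS1 most like GBP6 (0.990). Ranked by Spearman's rho instead, 5 of the 30 genes closest to a member stayed among its 5 closest.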

How the data were processed

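RNA-seq was done on 12 libraries of HT1376 (total RNA, KAPA RNA HyperPrep with RiboErase). The authors aligned the reads to GRCh38 with STAR (2.7.11a in the submitters' processing notes), removed Mycoplasma sequences with Kraken, and deposited raw htseq-count counts per gene, without normalization. How strand was set and how reads with several matches were treated is not given in the sources used here, which leaves overlapping, antisense and near-identical genes uncertain. Groups follow the sample labels, and dose and time come from the study's methods.

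edgeR 4.0.16 (quasi-likelihood test, TMM scaling, R 4.3.3) was run on the counts of every gene whose sum over the libraries of a comparison reached 10, and the interaction used all 12 libraries. Benjamini-Hochberg adjusted p-values under 0.05 were called. In comparisons of a pair of groups, the report counts members only where each group reached 10 counts by itself, a choice made after seeing the data. SE is the absolute log2 fold change over the square root of F. CPM were scaled by TMM factors, and RPKM took the length covered by all exons of a gene in GENCODE 44. Coding sequences were aligned with Biopython 1.88. Depth limits the low genes, since 3 counts, the floor used, equal 0.0764 to 0.668 CPM per library, and intervals cover counting error only. The fits were tested on simulated data.

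The members and gene lists were chosen with earlier results of these data known. Genes named besides the members are IRF1, up to 4 called genes per list with the largest change, all protein-coding neighbours within 500 kb, GBP pseudogenes, and the 5 non-members with the highest Pearson correlation to each member (prior count 2, mean of at least 1 CPM), of which the first are printed. A further gene of the rule is not reported here. Motif letters and marker genes named singly were chosen after values were seen. JAK1, STAT2 and PTPN11, the signalling genes higher in KO, were also added then. CXCL9 was left out because untreated CT libraries were at 0.

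Within a line, libraries that share a number departed from their group means in the same direction (r across 15677 genes with a mean of at least 1 CPM of 0.321 to 0.382 in CT and 0.428 to 0.564 in KO, and over 0.1 for every pair also across 27806 genes). For a shared number in different lines r was 0.126 to 0.338 over the first and 0.0408 to 0.136 over the second set. Different numbers in different lines gave -0.289 to 0.161 and -0.114 to 0.0703, so a shared number also went with higher values across lines, with overlap. Since r did not pass 0.1 for every such pair over the second set, pairing by number was assumed only inside each line. A number effect common to both lines was not tested. Differences between lines given per number are descriptive. Alternatives were other scaling, other filters, DESeq2 1.42.0, bias-adjusted deviance, replicate blocks, all 12 libraries in 1 fit, fold thresholds and leaving out each library.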

Additional observations from a re-analysis of the deposited data

Results flagged for a closer look

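The IFNγ response differed between the lines, by the interaction fitted over the 12 libraries with edgeR's quasi-likelihood test, for GBP1 (-3.08 on the log2 scale, KO minus CT, adjusted p = 2.3e-06), GBP2 (-4.98, adjusted p = 4.5e-08) and GBP5 (-3.13, adjusted p = 0.0148). GBP1 and GBP2 also started 7.69-fold and 81.8-fold higher in untreated KO. The GBP5 start (1.83 on the log2 scale) did not pass in the fit of the untreated libraries alone. With all 12 libraries in 1 fit, as for the interaction, the GBP5 start passed (1.71, edgeR adjusted p = 0.00664). In each of the numbers 11, 12 and 13 the response in KO was the smaller for these genes. The spread of the GBP5 values (-4.34, -2.87 and -2.86) was the widest of the 3 genes.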

How the results depend on the processing

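Of 87 recounted numbers of called members, 83 stayed within 1.5 times the reported count, and of 573 gene values 552 kept both direction and side of the threshold, with 0 reversed. GBP1 to GBP5 passed for IFNγ in both lines under every alternative. The counts here are of every member tested, with GBP6 and GBP7, which entered some tests only through 1 group. For KO against CT untreated, 4 members passed without the low-count filter (GBP4 and GBP5 joined), 3 with all 12 libraries in 1 fit (GBP5 joined), and 2 to 3 when a library was left out. For KO against CT under IFNγ, 1 member passed when a log2 fold change over 2 was required, which is how that threshold is built (GBP7), and the count was 5 when any library was left out. For the interaction, 5 passed with a replicate block within each line, and 5 with that block and the bias-adjusted deviance, both chosen after seeing the data, while 2 to 3 passed when a library was left out. The plain replicate block changed the calls of GBP5 untreated and GBP4 in the interaction, given with the results, and no other call of a member. The cause of these changes was not tested. GBP6 and GBP7 in untreated cells, at 0 to 5 counts per library, are below what this depth can compare between lines. With length taken from the longest transcript, 3 of 4 shares of the leading member moved by less than 1 SD.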
